A study of Homo sapiens with 12 samples.

Results

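The carcinoembryonic antigen (CEA) family was followed in HT-29 cells through 5 genes: CEACAM5, CEACAM6, CEACAM7, CEACAM1 and CEACAM19. They were taken by gene symbol, as 5 of the 25528 rows of the expression table, and all 5 were found. The study acted on WNT signalling in 2 ways, by expressing CTNNB1 (β-catenin) from a lentivirus or by knocking down APC, which helps to mark β-catenin for degradation. RNA-seq was run on 12 libraries, 3 in each of 4 groups. HT-29 is a long-established line from a human colon adenocarcinoma, and its genotype is labelled as APC mutant, so the control groups carry that mutation too. In the open reading frame arm, cells infected with GFP virus served as control for cells infected with CTNNB1 virus, and harvest was on day 2 of infection. In the hairpin arm the lentivirus carried the control hairpin shNT1 or a hairpin against APC (shAPC), and cells were harvested on day 1 of induction with 2 µM doxycycline. The labels name no promoter for the constructs and do not say whether the 3 libraries of a group came from separate cultures, so p-values measure only the spread between these libraries.

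CEACAM proteins are cell surface adhesion molecules of the immunoglobulin superfamily that bind one another, and some bacteria, through an outermost variable-like domain. CEACAM5 (the tumour marker CEA itself), CEACAM6 and CEACAM7 hang from the outer membrane leaflet by a glycosylphosphatidylinositol (GPI) anchor, whereas CEACAM1 spans the membrane and can carry an inhibitory signalling tail. In the normal colon they sit mainly on mature epithelial cells of the upper crypt and the surface, away from the stem cells at the base where WNT signalling is strongest. CEACAM19 is a more distant, membrane-spanning relative.

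All 5 genes lie on chromosome 19 (GENCODE v29, GRCh38, the build that the submitters' processing notes also name). CEACAM7 (chr19:41673307-41706976, minus strand) and CEACAM5 (chr19:41708585-41729798, plus strand) are neighbours 1608 bases apart, and CEACAM6 (chr19:41750977-41772208, plus strand) lies 21178 bases beyond CEACAM5. CEACAM1 (chr19:42507304-42561234, minus strand) is a further 735095 bases away and CEACAM19 (chr19:44662278-44684359, plus strand) another 2101043 bases.

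The promoters of the 4 closely related genes are shown because 3 of these genes had lower transcript levels and 1 a higher level after both perturbations. Each sequence is the 250 bases before the RefSeq gene start (GRCh38.p14), 5′ to 3′ on the gene's own strand. The windows are chr19:41708376-41708625 for CEACAM5, chr19:41755280-41755529 for CEACAM6, chr19:41688271-41688520 for CEACAM7 and chr19:42528482-42528731 for CEACAM1. The GENCODE spans above cover all transcripts of a gene, so their ends differ from these starts. Capitals mark CACGTG, the E-box bound by the USF factors, and the bases aligned to it in the other promoters.
CEACAM5: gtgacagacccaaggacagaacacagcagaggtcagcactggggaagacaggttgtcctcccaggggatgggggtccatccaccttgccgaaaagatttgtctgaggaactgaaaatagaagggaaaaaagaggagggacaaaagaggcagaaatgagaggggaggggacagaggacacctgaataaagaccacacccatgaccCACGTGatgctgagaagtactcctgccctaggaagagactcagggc
CEACAM6: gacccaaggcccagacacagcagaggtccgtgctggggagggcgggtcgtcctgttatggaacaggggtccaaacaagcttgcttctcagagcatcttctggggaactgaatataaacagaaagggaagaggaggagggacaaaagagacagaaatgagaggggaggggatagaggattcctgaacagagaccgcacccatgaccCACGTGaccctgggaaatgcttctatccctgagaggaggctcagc
CEACAM7: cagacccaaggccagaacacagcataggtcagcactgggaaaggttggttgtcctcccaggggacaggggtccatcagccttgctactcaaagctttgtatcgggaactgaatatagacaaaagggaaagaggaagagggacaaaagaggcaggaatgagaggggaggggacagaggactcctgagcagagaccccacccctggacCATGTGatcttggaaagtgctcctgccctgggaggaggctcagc
CEACAM1: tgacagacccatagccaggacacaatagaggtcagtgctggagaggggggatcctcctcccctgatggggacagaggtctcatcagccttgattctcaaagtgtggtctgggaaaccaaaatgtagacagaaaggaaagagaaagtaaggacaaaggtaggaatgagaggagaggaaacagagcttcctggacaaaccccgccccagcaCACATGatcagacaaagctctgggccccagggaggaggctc
The promoters of CEACAM5 and CEACAM6 were identical in 74.6% of aligned positions, and each held 1 CACGTG, beginning 46 and 45 bases before the start. CEACAM7 was the closest to both (80.5% identical to CEACAM5 and 79.9% to CEACAM6), but its aligned hexamer was CATGTG, the change C3T counted from the hexamer's first base. The CEACAM1 promoter was less alike, at 65.7% to 71.3% identity, and its aligned hexamer was CACATG, the change G4A. CACGTG was found, on either strand, in 6.34% of 35116 RefSeq promoter windows of the same length. The looser form CANNTG, searched for after these hexamers had been seen and met by all 4 of them, was found in 61.8%. CTTTGAT and CTTTGAA are among the forms bound by the TCF and LEF factors that act with β-catenin. They were in none of the 4 windows on either strand and in 2.26% and 3.80% of all windows. Other forms bound by these factors were not searched for, so their absence from the 4 windows was not shown. The GC box GGGCGG occurred once in CEACAM6 and once in CEACAM1, against 42.6% of all windows. These matches describe letters in a window and are not binding data.

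Before the members, the libraries were checked. TPM (transcript abundance scaled for length and total, so levels can be compared between genes) keeps no sequencing depth, and the depth of each library is therefore unknown. Between 14756 and 16186 genes had a TPM above 0. Mean APC levels were 16.4 TPM with the control hairpin and 5.99 TPM with shAPC, and mean CTNNB1 levels were 146 TPM with GFP and 160 TPM with the CTNNB1 virus (limma adjusted p = 0.059), where construct and endogenous transcripts are not separated. The identity as colon epithelium was checked on 12 markers, of which 10 had a mean of at least 1 TPM. CDX1 and CDX2, the intestinal homeobox factors, did not, and no library had more than 0.875 TPM of either. Of 8 granulocyte markers, chosen because granulocytes also make CEACAM proteins, none reached a mean of 1 TPM, and FCGR3B, ELANE, CSF3R and S100A12 were at 0 in all 12 libraries. None of 9 fibroblast or endothelial markers reached a mean of 1 TPM.

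CEACAM5, the CEA gene, fell to less than 50% of its control level in both arms. In GFP libraries it stood at 25.5, 26.9 and 27.7 TPM, and in CTNNB1 libraries at 9.82, 12.6 and 14.4 TPM. The groups did not overlap: every CTNNB1 library lay below every GFP library. The mean went from 26.7 ± 1.15 to 12.3 ± 2.29 TPM (SD, n = 3 each), which left 46.0% of the control level. On the log2(TPM + 1) scale the change was -1.08 (SE 0.11, limma adjusted p = 0.00016). In the hairpin arm the shNT1 libraries had 10.7, 12.1 and 10.1 TPM and the shAPC libraries 3.97, 5.02 and 3.06 TPM. Again no library overlapped, and the mean fell to 36.7% of its control, from 10.96 ± 1.04 to 4.02 ± 0.982 TPM (SD, n = 3 each). The change was -1.27 on the log2 scale (SE 0.13, limma adjusted p = 0.00015).

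CEACAM6, an adhesion molecule often raised in colorectal tumours, was the most abundant GPI-anchored member and fell alongside CEACAM5. GFP libraries held 137, 136 and 132 TPM, against 54.0, 66.0 and 81.7 TPM in CTNNB1 libraries. All 3 CTNNB1 libraries were lower than all 3 GFP libraries, although they were spread more widely. Means were 135 ± 2.73 and 67.2 ± 13.9 TPM (SD, n = 3 each), a fall to 49.9% of control (log2 change -1.01, SE 0.12, limma adjusted p = 0.0003). The shNT1 libraries held 46.0, 45.4 and 47.5 TPM and the shAPC libraries 18.9, 21.8 and 17.4 TPM, with no overlap. Means of 46.3 ± 1.09 and 19.4 ± 2.27 TPM (SD, n = 3 each) gave a fall to 41.8% of control (log2 change -1.22, SE 0.08, limma adjusted p = 8.6e-06).

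Falls of this size were uncommon in either arm on the log2(TPM + 1) scale. Adding 1 before the logarithm shrinks falls of genes at low levels. The shares lower by at least 1 and the ranks below therefore hold for that scale only. In the CTNNB1 arm limma called 23.5% of 11624 genes, 7.16% lower, and 0.258% lower by at least 1 on the log2 scale. In the shAPC arm it called 22.1% of 11834 genes, 14.9% lower, and 0.22% lower by at least 1. Perturbed libraries all lay below control libraries for 13% of genes in the CTNNB1 arm and 26.4% in the shAPC arm, so a lack of overlap alone was common. The balance of directions over all genes depended on scaling: in the CTNNB1 arm 69.5% of called genes were higher (46.1% under median-ratio scaling, 52.9% under quantile normalization), and 32.8% in the shAPC arm (44.3% and 49.4%). CEACAM5, CEACAM6 and CEACAM1 kept their directions and calls in both arms under both of these scalings. Of 11556 genes tested in both arms, 374 (3.24%) were called lower in both, and 6 (0.0519%) were called lower by at least 1 in both, CEACAM5 and CEACAM6 among them. Ranked by size among called genes, the fall of CEACAM5 was the 22nd in the CTNNB1 arm and the 9th in the shAPC arm, and that of CEACAM6 the 30th and the 12th. In the CTNNB1 arm 30 genes were called lower by at least 1, so CEACAM6 was the last of them. With 1 library left out, the change in that arm was as small as -0.94 for CEACAM5 and -0.87 for CEACAM6, which miss that cutoff.

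CEACAM7, which codes for a GPI-anchored protein of the normal colon surface, was near the limit of what was measured. Its levels were 0.671, 0.806 and 0.784 TPM in GFP, 0.416, 0.432 and 0.556 TPM in CTNNB1, 0.493, 0.467 and 0.369 TPM in shNT1, and 0.126, 0.155 and 0.0897 TPM in shAPC libraries. Neither arm overlapped, and the means were 62.1% and 27.9% of their controls. The shares of genes without overlap given above cover only genes with a mean of at least 1 TPM, so none applies here. CEACAM7 lay under the minimum mean of 1 TPM, so the main test does not cover it. Without that minimum its log2(TPM + 1) change was -0.26 (limma adjusted p = 0.036) in the CTNNB1 arm and -0.36 (limma adjusted p = 0.0085) in the shAPC arm, where 3.9% and 6.62% of all genes were called lower. Adding 1 before the logarithm understates changes at such levels.

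CEACAM1, the membrane-spanning member with an inhibitory tail in its long form, moved the other way. It rose from 72.3, 75.1 and 76.7 TPM in GFP to 102, 98.3 and 87.8 TPM in CTNNB1 libraries. The groups did not overlap, and the mean of 95.9 ± 7.26 TPM was 128% of the control mean of 74.7 ± 2.22 TPM (SD, n = 3 each). The log2 change was 0.35 (SE 0.06, limma adjusted p = 0.0031), in an arm where 16.3% of genes were called higher and 30.2% had all perturbed libraries above all controls. From shNT1 to shAPC it went from 114, 115 and 114 to 137, 135 and 125 TPM. These groups did not overlap either, and the mean of 132 ± 6.4 TPM was 116% of 114 ± 0.968 TPM (SD, n = 3 each). The log2 change of 0.21 (SE 0.05) passed the threshold (limma adjusted p = 0.019, with 7.24% of genes called higher and 14.5% not overlapping in that direction). Of the 11556 genes tested in both arms, 4.08% were called higher in both. This call was close to the threshold. It was lost without shNT1 replicate 1 (limma adjusted p = 0.067), without shAPC replicate 1 (limma adjusted p = 0.054) and without shAPC replicate 2 (limma adjusted p = 0.068).

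CEACAM19 was hardly detected. Its range was 0.122 to 0.357 TPM in GFP, 0.0873 to 0.305 in CTNNB1, 0.174 to 0.439 in shNT1 and 0.295 to 0.407 in shAPC libraries. Both arms overlapped. Without the minimum level its log2 changes were -0.03 (limma adjusted p = 0.87) and 0.08 (limma adjusted p = 0.60), and at this level no difference could be detected.

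**Figure D1:**
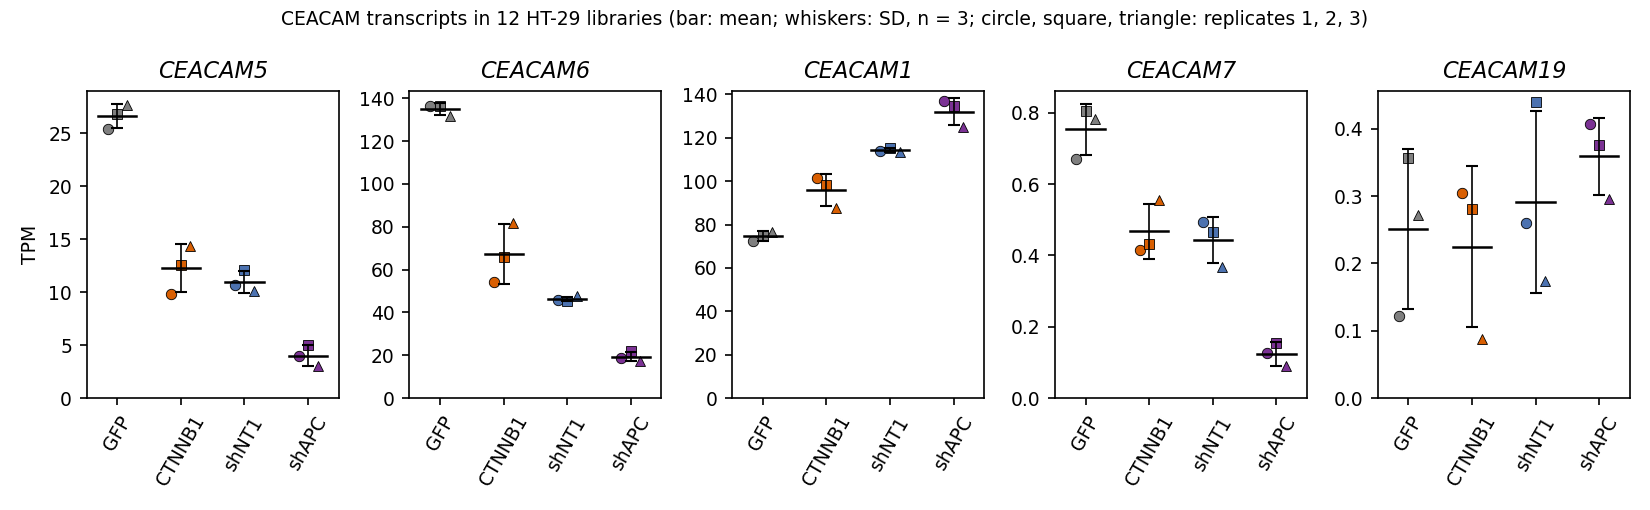
TPM of the 5 CEACAM genes (y axis, from 0, a scale per panel) in the 4 groups (x axis); points are the 3 libraries of a group, bars the mean and whiskers the SD. CEACAM5, CEACAM6 and CEACAM7 are lower and CEACAM1 is higher in the perturbed group of each arm, and CEACAM19 overlaps throughout.

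The perturbations were then set against each other in 1 fit of all 12 libraries, by subtracting the change under shAPC from that under CTNNB1. Of the 3 members tested, 0 passed, where 16.1% of 11741 genes did (13.3% with a positive and 2.76% with a negative difference, so that 82.8% of the calls were positive, against 54.7% under median-ratio scaling), and none had an unadjusted p under 0.05, since all 3 intervals held 0. CEACAM5 differed by 0.19 (95% confidence interval -0.22 to 0.60, limma adjusted p = 0.52), CEACAM6 by 0.21 (-0.13 to 0.55, adjusted p = 0.39) and CEACAM1 by 0.15 (-0.02 to 0.32, adjusted p = 0.21). The upper bounds for CEACAM5 and CEACAM6 are large beside their changes of -1.01 to -1.27, so equal responses were not shown.

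**Figure D2:**
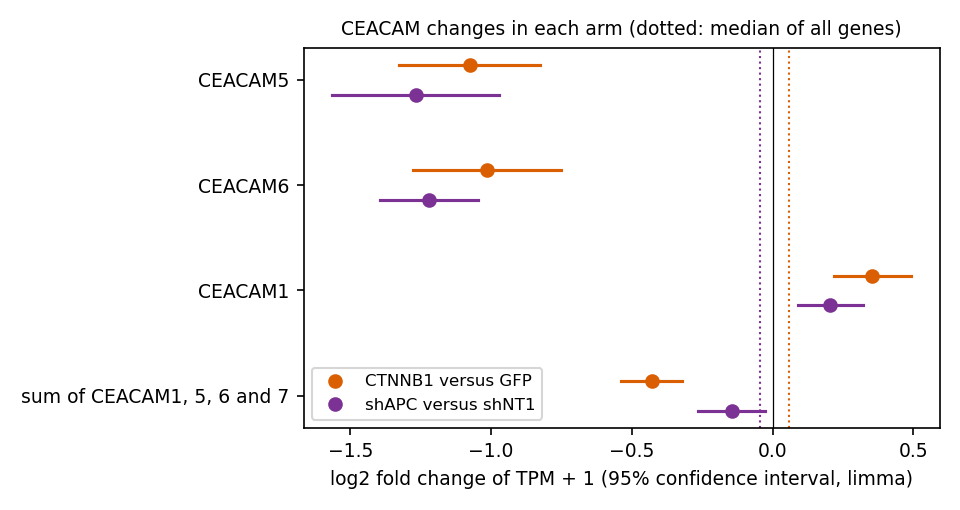
Log2 fold change of TPM + 1 (x axis) with its 95% confidence interval from limma for CEACAM5, CEACAM6, CEACAM1 and the summed TPM of CEACAM1, CEACAM5, CEACAM6 and CEACAM7, in each arm. Both arms put CEACAM5 and CEACAM6 below -1 and CEACAM1 above 0; the dotted lines are the medians of all genes, 0.06 and -0.04.

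The control groups also differed. CEACAM5 was 2.43-fold and CEACAM6 2.91-fold lower in shNT1 than in GFP libraries, and CEACAM1 was 1.53-fold higher. The log2 differences were -1.21 (limma adjusted p = 2.1e-05), -1.52 (limma adjusted p = 3.8e-07) and 0.61 (limma adjusted p = 3.7e-06), in a contrast that called 29.6% of genes, 8.81% lower and 20.8% higher (70.2% of the calls higher, against 46.9% under median-ratio scaling). For CEACAM6 and CEACAM1 these differences exceeded the change in either arm, and for CEACAM5 the difference lay between the changes of the 2 arms; the excess was not tested. Vector, day of collection and doxycycline all changed between the controls and cannot be told apart. AXIN2, a direct WNT target, was lower in shNT1 (29.9 TPM) than in GFP (39.2 TPM), with a log2 difference of -0.38 (limma adjusted p = 0.00021). Thus between the controls AXIN2 and the GPI-anchored members were lower together, whereas within each arm AXIN2 rose (to 81.6 TPM with CTNNB1 and 92.1 TPM with shAPC) while they fell.

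For the members other than CEACAM19, the levels over the 4 groups followed one order or its reverse. CEACAM6 was highest in GFP, then CTNNB1, shNT1 and shAPC, with no overlap between neighbouring groups. CEACAM5 had the same order of means, but its CTNNB1 libraries (9.82 to 14.4 TPM) and shNT1 libraries (10.1 to 12.1 TPM) overlapped, as did those of CEACAM7. CEACAM1 had the reverse order, with no overlap between neighbours. Within the CTNNB1 group, replicate 1 had the lowest CEACAM5 and CEACAM6 and the highest CEACAM1, and replicate 3 the highest CEACAM5 and CEACAM6 and the lowest CEACAM1. Within shAPC that opposition was not seen, as replicate 3 was lowest for CEACAM5, CEACAM6 and CEACAM1 alike. AXIN2 in the CTNNB1 libraries (80.7, 80.7 and 83.3 TPM) varied far less than CEACAM6 did.

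**Figure D3:**
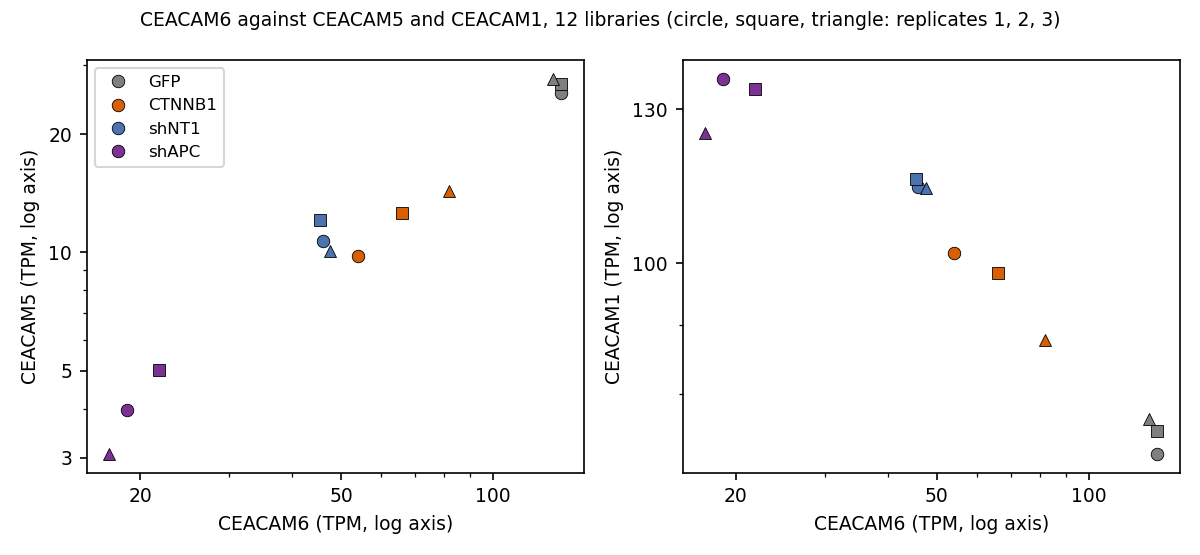
CEACAM5 against CEACAM6 (left) and CEACAM1 against CEACAM6 (right), in TPM on log axes, one point per library, coloured by group. The CEACAM5 and CEACAM6 points climb together from shAPC to GFP, while CEACAM1 declines from about 137 to 72.3 TPM as CEACAM6 climbs.

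These opposite changes altered the proportions of the CEACAM transcripts. CEACAM1 made up 31.5% ± 0.804 of the summed TPM of CEACAM1, CEACAM5, CEACAM6 and CEACAM7 in GFP, and 54.8% ± 6.87 in CTNNB1 libraries (SD, n = 3 each). It made up 66.5% ± 0.201 in shNT1 and 84.9% ± 1.43 in shAPC (SD, n = 3 each). Neither arm overlapped, and each had the smallest p that 3 against 3 allows (exact permutation test, two-sided, p = 0.1). Both follow from the members' own values, as CEACAM1 was higher and the rest of the sum lower in every perturbed library. They are therefore no separate support. The mean share of CEACAM6 was 56.9% with GFP and 38.0% with CTNNB1, and it was 26.9% with shNT1 and 12.4% with shAPC. For each CEACAM1 transcript there were 1.81 CEACAM6 transcripts with GFP and 0.711 with CTNNB1. In the hairpin arm, where CEACAM1 was already the more abundant in the control, the ratio was 0.405 with shNT1 and 0.146 with shAPC.

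The sum itself was 237 ± 2.09 TPM in GFP and 176 ± 9.34 TPM in CTNNB1, against 172 ± 1.23 TPM for shNT1 and 156 ± 8.91 TPM for shAPC (SD, n = 3 each). It did not overlap within an arm (exact permutation test, p = 0.1, the smallest possible). Entered in limma as a row of its own, it fell by 0.43 on the log2 scale in the CTNNB1 arm (SE 0.05, adjusted p = 0.00026) and changed by -0.15 in the shAPC arm (SE 0.05, adjusted p = 0.081). The ratio of CEACAM6 to CEACAM5 was 5.06 in GFP, 5.47 in CTNNB1, 4.25 in shNT1 and 4.92 in shAPC. The exact permutation test gave p = 0.2 in each arm, in a design that cannot go below 0.1, so it does not show that the ratio stayed the same.

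**Figure D4:**
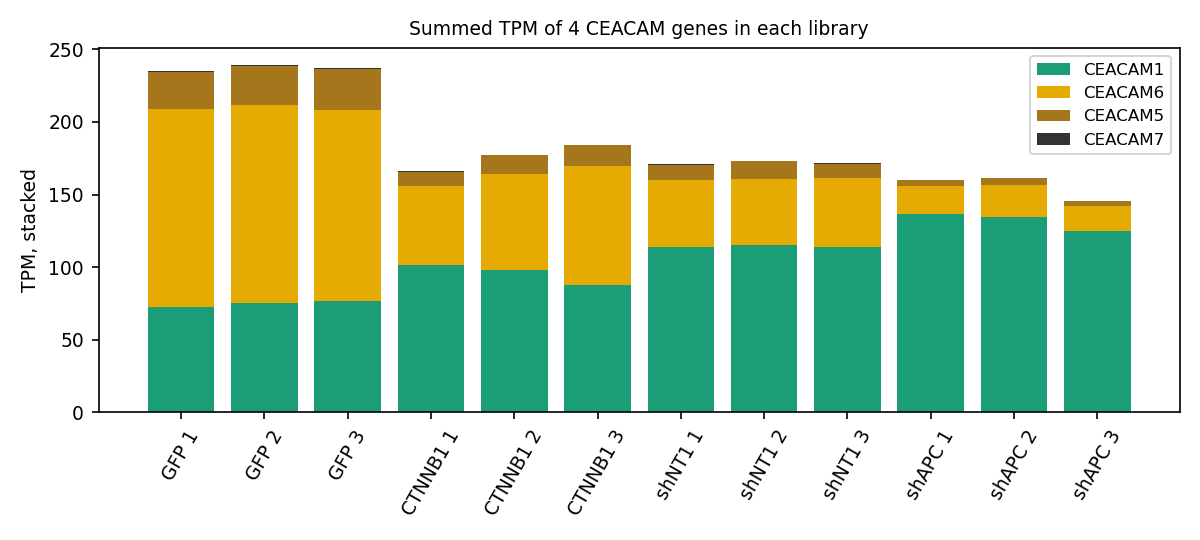
Summed TPM (y axis, from 0) of 4 CEACAM genes in each of the 12 libraries, stacked by gene. CEACAM6 is the broadest band in GFP libraries and CEACAM1 in shAPC libraries, while the mean sum is 237 TPM with GFP against 176 TPM with CTNNB1, and 172 TPM with shNT1 against 156 TPM with shAPC.

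Paralogs can share reads, and the read length and the handling of shared reads are not given in the sources used here. Sequence sharing was therefore counted over protein-coding GENCODE v29 transcripts. At 100 bases no member shared a stretch with another member. At 50 bases, 1.34% of the stretches of CEACAM5 were also in CEACAM6 and 0.701% in CEACAM1, and CEACAM7 shared none with any gene. The gene model AC243967.1, which was not analysed here, overlaps CEACAM5 and CEACAM6 on the same strand and held 17.7% of the 50-base stretches of CEACAM5. CEACAM1 shared 2.19% with CEACAM3, which had at most 0.561 TPM, and 185 of its exon bases lie opposite LIPE-AS1 (mean 0.151 TPM), whose reads cannot be told apart if strand was not used. CEACAM19 shared 2.39% with PVR, which overlaps it and averaged 66.6 TPM, so its low values are uncertain.

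The authors' deposited tables gave the same directions. For CTNNB1 against GFP the authors' deposited table held log2 fold changes of -1.21 for CEACAM5 (adjusted p = 0.0056), -1.10 for CEACAM6 (0.010), -0.77 for CEACAM7 (0.030) and 0.29 for CEACAM1 (0.016). For shAPC against shNT1 the authors' deposited table held -1.43 for CEACAM5 (adjusted p = 0.0086), -1.23 for CEACAM6 (0.0014), -1.74 for CEACAM7 (0.011) and 0.25 for CEACAM1 (0.010). CEACAM19 had adjusted p-values of 0.76 and 0.69 in the authors' deposited tables, in which 4.6% and 4.9% of rows were called lower. In either direction 9.42% and 9.01% of rows were called. CEACAM7 was matched there by symbol, and its Ensembl identifier differs from the one in GENCODE v29.

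The rest of the family was barely detected. The table held 19 further CEACAM and pregnancy-specific glycoprotein (PSG) genes, of which 10 were at 0 in all libraries and none averaged 1 TPM. The 11 PSG genes did not exceed 0.0587 TPM. CEACAM18, singled out after its values had been seen, reached the highest level among them, 1.63 TPM. Its mean was 0.963 TPM in GFP, 0.425 in CTNNB1, 1.04 in shNT1 and 0.204 in shAPC. The CTNNB1 arm overlapped and the shAPC arm did not, and its adjusted p-values in the authors' deposited tables were 0.33 and 0.084. No share of genes without overlap was counted at such low levels.

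Genes linked to CEACAM biology were then counted from lists. Over all genes tested, 16.3% were called higher and 7.16% lower in the CTNNB1 arm, and 7.24% higher and 14.9% lower in the shAPC arm. WNT target genes, the readout of both perturbations, were called higher in 13 of 15 tested genes in each arm and lower in none. Their median log2 changes were 1.04 and 1.16, against 0.06 and -0.04 for all genes. The stem cell genes LGR5 and ASCL2 and the WNT-induced factor SP5 were among them. LGR5 reached 31.5 TPM with CTNNB1 (11.5 TPM with GFP) and 30.4 TPM with shAPC (12.5 TPM with shNT1, limma adjusted p = 3.8e-06 and 2.4e-05). Of the 12 tested genes of surface colonocytes, the cells that normally display CEACAM proteins, 8 were called lower and 2 higher in the CTNNB1 arm, and 9 lower and 1 higher in the shAPC arm. The medians of these tested genes were -0.22 and -0.48. The list holds 28 genes, and the rest lay under the minimum of 1 TPM, with CA1 and AQP8 at 0 throughout. VIL1 and SLC26A2 were the genes called higher with CTNNB1 (log2 changes 0.47 and 0.65, limma adjusted p = 0.00012 and 0.0067). MUC13 was the gene called higher with shAPC (log2 change 0.21, limma adjusted p = 0.021). CA2, a carbonic anhydrase, fell from 56.9 to 27.5 TPM and from 45.6 to 27.7 TPM (limma adjusted p = 1.8e-05 and 3.6e-05). HPGD, the enzyme that inactivates prostaglandins, fell from 19.2 to 10.7 TPM and from 14.5 to 7.21 TPM (limma adjusted p = 6.7e-05 and 4.9e-05). LGALS4, a galectin of the intestinal lining, fell to 522 TPM from 748 TPM and to 623 TPM from 951 TPM (limma adjusted p = 9.2e-05 and 0.00016). KRT20, a keratin of surface cells, had a log2 change of -0.01 in the CTNNB1 arm (limma adjusted p = 0.90) and fell by 0.61 in the shAPC arm (limma adjusted p = 0.00017). In such bulk RNA, fewer cells of a type and less RNA per cell cannot be told apart.

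Of 27 tested genes that build the GPI anchor, 2 were called higher and 2 lower in the CTNNB1 arm, and 2 lower in the shAPC arm, with list medians of 0.02 and -0.05, where 23.5% and 22.1% of all genes were called in either direction. Other GPI-anchored proteins changed in both directions: 5 of 19 tested were called higher and 3 lower in the CTNNB1 arm, and 5 of 20 higher and 7 lower in the shAPC arm, against 16.3% and 7.16%, and 7.24% and 14.9%, of all genes. One of the higher genes, TDGF1, is on the WNT target list too. Under median-ratio scaling the CTNNB1 arm had 2 higher and 3 lower. CD55, a complement regulator, fell from 211 to 134 TPM and from 174 to 107 TPM (limma adjusted p = 3e-05 and 1e-05). PLAUR, the urokinase receptor, fell from 48.1 to 33.0 TPM and from 47.2 to 27.0 TPM (limma adjusted p = 0.0002 and 0.00013). EFNA4, an ephrin ligand, rose to 20.9 TPM from 17.2 TPM and to 24.0 TPM from 15.5 TPM (limma adjusted p = 0.021 and 0.0012). Its call in the CTNNB1 arm was lost without GFP replicate 1, GFP replicate 2 or CTNNB1 replicate 2 (limma adjusted p = 0.092, 0.062 and 0.084) and under median-ratio scaling (limma adjusted p = 0.059). CD59, another complement regulator, fell from 141 to 117 TPM and from 122 to 88.0 TPM (limma adjusted p = 0.0018 and 0.00025).

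Other epithelial adhesion molecules of the immunoglobulin superfamily were mixed. Of 25 tested, 8 were called higher and 4 lower in the CTNNB1 arm and 2 higher and 6 lower in the shAPC arm. Of all genes, 16.3% were called higher and 7.16% lower in the first arm and 7.24% higher and 14.9% lower in the second. For the adhesion molecules the CTNNB1 arm had 6 higher and 4 lower under median-ratio scaling. CADM4 rose to 7.84 TPM from 3.48 TPM and to 10.4 TPM from 6.1 TPM (limma adjusted p = 1e-04 and 0.0052). ESAM, a junctional adhesion molecule relative, fell from 45.6 to 34.5 TPM and from 45.8 to 29.8 TPM (limma adjusted p = 0.0052 and 0.00015). VSIG2 fell from 53.3 to 42.6 TPM and from 65.9 to 49.7 TPM (limma adjusted p = 0.0035 and 0.0041).

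Among 26 tested binding partners and signalling proteins, 6 were called higher and 4 lower in the CTNNB1 arm, and none higher and 12 lower in the shAPC arm; over all genes the shares were 16.3% and 7.16%, and 7.24% and 14.9%. Under median-ratio scaling these counts were 3 and 4, and 0 and 11, and without shAPC replicate 3 the shAPC arm had 7 calls. ANXA2 and S100A10, which code for the 2 chains of a membrane-bound calcium-binding complex, fell together. ANXA2 went from 3891 to 3001 TPM and from 3308 to 2509 TPM (limma adjusted p = 0.00016 and 0.00069), and S100A10 from 1795 to 1404 TPM and from 1470 to 1200 TPM (limma adjusted p = 0.00018 and 0.0029). PTPN6 and PTPN11, which code for the phosphatases recruited by the CEACAM1 tail, were not called in either arm (limma adjusted p = 0.98 and 0.17 for PTPN6, and 0.082 and 0.19 for PTPN11). Of 18 transcription factors described at CEACAM promoters, 6 were called higher and 1 lower in the CTNNB1 arm and 1 higher and 3 lower in the shAPC arm, to be read against the same shares of all genes. In the CTNNB1 arm these counts were 3 and 2 under median-ratio scaling and 3 and 1 under quantile normalization. SOX9, an intestinal crypt factor, rose to 140 TPM from 109 TPM with CTNNB1 (limma adjusted p = 0.0056). With shAPC it rose to 165 TPM from 139 TPM (limma adjusted p = 0.030), a call that was lost on leaving out any 1 of shNT1 replicates 1 and 2 and shAPC replicates 1 and 2 (limma adjusted p from 0.054 to 0.11). The 7 calls of the CTNNB1 arm were 2 without GFP replicate 2. KLF4, a factor of differentiating epithelium, fell from 12.3 to 8.33 TPM and from 10.5 to 5.94 TPM (limma adjusted p = 0.0016 and 0.00027). USF1 was not called in either arm, with log2 changes of 0.06 and 0.01 (limma adjusted p = 0.48 and 0.96). USF2 was called higher in the CTNNB1 arm, at 84.0 TPM against 75.1 TPM with GFP (log2 change 0.16, limma adjusted p = 0.045). That call was close to the threshold and was not followed under the alternatives. Median-ratio scaling moved the median of all genes in that arm by -0.069. In the shAPC arm USF2 was not called (log2 change -0.0026, limma adjusted p = 0.98).

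**Figure D5:**
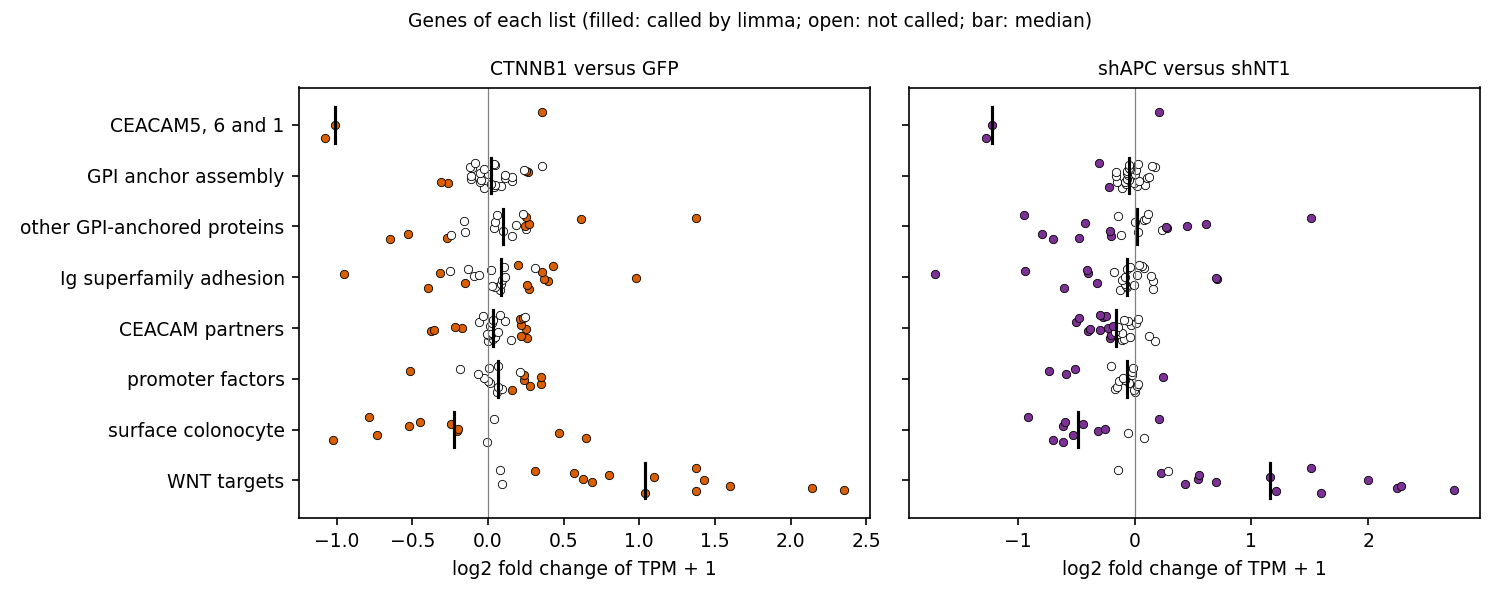
Log2 fold change of TPM + 1 (x axis) for each tested gene of each list (y axis), in the CTNNB1 arm (left) and the shAPC arm (right); filled points were called by limma, open points were not, and the bar is the list median. CEACAM5 and CEACAM6 (-1.08 and -1.01) lie close to CA2 (-1.02), the lowest of the surface colonocyte list, in the CTNNB1 arm, and at -1.27 and -1.22 they lie below all of that list, whose lowest is HPGD (-0.91), in the shAPC arm. WNT targets have medians of 1.04 and 1.16.

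Markers of other cells were set beside these changes. In the list of 8 other leukocyte markers, CD3E, CD2, MS4A1 and NKG7 were at 0 in all libraries, the pan-leukocyte gene PTPRC did not exceed 0.0217 TPM, and CD68 and CD14 alone averaged at least 1 TPM. The summed list went from between 28.8 and 30.1 TPM in GFP to between 14.9 and 17.0 TPM in CTNNB1, and from at most 17.6 TPM in shNT1 to between 8.78 and 10.9 TPM in shAPC. CD68, a lysosomal protein gene, was the largest part of it, at 26.6 to 27.4 TPM in GFP, 11.9 to 13.9 TPM in CTNNB1, 13.0 to 14.3 TPM in shNT1 and 6.06 to 8.39 TPM in shAPC libraries. Its log2 changes were -0.98 (limma adjusted p = 2.4e-05) and -0.81 (limma adjusted p = 0.00067). The part of such markers in the CEACAM values was not tested.

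Finally, the genes most like CEACAM5 and CEACAM6 were sought among 9434 genes with a mean of at least 5 TPM, by Pearson correlation of log2(TPM + 1) over the 12 libraries. The libraries form 4 groups of 3 and are not 12 independent points, so r is a description. ELOVL1, a very long chain fatty acid elongase, was closest to CEACAM5 (r = 0.993), followed by MAFK (0.986), VSIG10L (0.985), PFKP (0.984) and TUBA4A (0.981). For CEACAM6 they were ENO1 (0.988), PFKP (0.987), FKBP4 (0.985), KCNK5 (0.982) and PFN2 (0.981). PFKP, a phosphofructokinase, and ENO1, an enolase, are glycolytic enzymes. ELOVL1 averaged 194, 147, 145 and 109 TPM in GFP, CTNNB1, shNT1 and shAPC, and PFKP 134, 103, 94.6 and 69.3 TPM. Both shared the order of the CEACAM genes with smaller steps, of -0.40 and -0.41 on the log2 scale for ELOVL1 (limma adjusted p = 0.0022 and 0.0026). These genes were chosen for their likeness over the same 12 libraries. The shared order and the falls therefore come with the choice, and the p-values are no separate support.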

How the data were processed

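RNA from 12 libraries of HT-29 cells, in 4 groups of 3, was measured by RNA-seq. The authors deposited a table of TPM with 25528 rows, each column summing to 1000000. STAR 2.7.3a, limma and the build hg38 are named in the submitters' processing notes; the annotation, the quantifier, the read length and the use of strand are not given in the sources used here. A limma table of each comparison, also deposited, holds per the file headers log2 fold changes, a log-odds score that was not used, p-values and adjusted p-values. TPM keeps no depth, so no interval for counting error is given.

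Here log2(TPM + 1) was fitted with limma 3.58.1 (R 4.3.3) with a mean-variance trend, each arm alone, over genes with a mean of at least 1 TPM. Calls are two-sided at a Benjamini-Hochberg adjusted p under 0.05 over all genes tested. The difference between arms, and shNT1 against GFP (added after the data had been seen), came from 1 fit of 12 libraries. Single values were compared by two-sided exact permutation test, whose p cannot go below 0.1 with 3 against 3. The fits were tested on simulated data.

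All 5 members are named, with APC, CTNNB1 and at most 4 genes of each list, those called in the same direction in both arms with a mean of at least 5 TPM and the largest mean change, and the 5 genes most correlated with CEACAM5 and with CEACAM6. KRT20, VIL1, SLC26A2, MUC13, CA1, AQP8, PTPN6, PTPN11, USF1, USF2, CD68 and CEACAM18 fall outside that rule and were chosen after their values were seen. Members and lists were chosen with earlier results of these data known. RefSeq promoters matched 4 of 5 members by symbol. Alternatives were a pseudocount of 0.1, no minimum, a minimum of 5 TPM, median-ratio and quantile scaling, no trend, a replicate block, 1 fit of 4 groups and leaving out each library.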

Additional observations from a re-analysis of the deposited data

Results flagged for a closer look

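The summed TPM of CEACAM1, CEACAM5, CEACAM6 and CEACAM7 changed by different amounts in the 2 arms, although none of the members tested did so alone. The CTNNB1 change minus the shAPC change was -0.2839 on the log2 scale (SE 0.07, 95% confidence interval -0.44 to -0.13, limma adjusted p = 0.018), the sum having gone from 237 to 176 TPM in the first arm and from 172 to 156 TPM in the second. For each tested member the same difference had the opposite sign, at 0.19 for CEACAM5, 0.21 for CEACAM6 and 0.15 for CEACAM1. CEACAM1, the member that rose, made up 31.5% of the sum with GFP and 66.5% with shNT1, so the sum weights the members differently in each arm. Under median-ratio scaling it was -0.40 (limma adjusted p = 0.0053), and without GFP replicate 2 it missed the threshold (-0.28, limma adjusted p = 0.050). Other differences between the arms were sought only among genes named by rule from the lists, for likeness or as a target of the perturbation. Of all 11741 genes, 16.1% were called in this contrast. Genes named outside that rule, KRT20 and VIL1 among them, were not searched. Both WNT targets below rose less with CTNNB1 than with shAPC: the difference was -0.6855 for ASCL2 (limma adjusted p = 0.0054) and -0.5559 for AXIN2 (limma adjusted p = 0.00057). CA2 fell more with CTNNB1, with a difference of -0.3246 (limma adjusted p = 0.025). CD59 fell less with CTNNB1, with a difference of 0.2026 (limma adjusted p = 0.044) that was 0.09 under median-ratio scaling (limma adjusted p = 0.39). APC, the target of the hairpin, differed by 1.531 (limma adjusted p = 1.2e-05). In this contrast the median of all genes was 0.11, and median-ratio scaling moved it by -0.104, close to 0.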

How the results depend on the processing

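No called result that was followed under the alternatives changed direction. The falls of CEACAM5 and CEACAM6 in both arms, and the rise of CEACAM1 in the CTNNB1 arm, kept their calls in every alternative, with CEACAM5 between -1.19 and -0.94 and CEACAM6 between -1.16 and -0.87 in the CTNNB1 arm when 1 library was left out. The rise of CEACAM1 in the shAPC arm ranged from 0.1795 to 0.2455 with 1 library left out and lost its call in 3 of those 6 fits. With 1 library left out, the number of genes called ranged from 1499 to 3190 in the CTNNB1 arm (2730 with all), lowest without GFP replicate 2 and also over 1.5 times lower without GFP replicate 1 or 3 or CTNNB1 replicate 2. It ranged from 1484 to 2252 in the shAPC arm (2615 with all), lowest without shAPC replicate 3 and also over 1.5 times lower without shAPC replicate 2. For the difference between the arms it ranged from 995 to 2143 (1885 with all), lowest without GFP replicate 2, and also over 1.5 times lower without GFP replicate 1 or shAPC replicate 2 or 3. The difference between the arms in summed CEACAM TPM ranged from -0.3318 to -0.2426 and lost its call without GFP replicate 2. The CTNNB1 change of that sum was past the threshold as a limma row (-0.4292), whereas the permutation test cannot pass it with 3 against 3. List counts, either direction, ranged as follows with 1 library left out. In the CTNNB1 arm GPI anchor assembly had 1 to 6 calls (4 with all), other GPI-anchored proteins 5 to 9 (8), immunoglobulin superfamily adhesion molecules 6 to 12 (12), partners 5 to 11 (10) and promoter factors 2 to 8 (7), each lowest without GFP replicate 2, alone or tied. In the shAPC arm GPI anchor assembly had 0 to 2 (2) and partners 7 to 12 (12). In the shAPC arm GPI anchor assembly had 0 calls with no minimum level and 1 under median-ratio scaling, quantile normalization or no variance trend, and the adhesion molecules had 5 at a minimum of 5 TPM (8). In the CTNNB1 arm other GPI-anchored proteins had 5 under median-ratio scaling, promoter factors 4 with no minimum level or quantile normalization, and WNT targets 7 at a minimum of 5 TPM (13), where fewer genes were tested. Apart from those minimum levels the cause was not tested. With a pseudocount of 0.1 the changes of CEACAM7 were -0.59 and -1.28.

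The replicate numbers, used as a replicate block, moved the calls for the difference between the arms to 1145 and left 2895 and 1767 genes called in the CTNNB1 and shAPC arms. CEACAM1 in the shAPC arm then had a change of 0.2055 with an adjusted p of 0.056 by limma, the list of partners 7 calls and GPI anchor assembly 1 call in that arm. The block ended no other call of a CEACAM member. Deviations of libraries with the same number correlated at 0.216, 0.07 and 0.115 in the CTNNB1 arm and at -0.146, -0.006 and -0.206 in the shAPC arm. The numbers therefore do not pair the libraries in the shAPC arm. In the CTNNB1 arm each library correlated best with its own number, but weakly, so whether the numbers pair those libraries is not settled.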

Other observations

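Besides CEACAM5 and CEACAM6, 4 genes were called lower by at least 1 on the log2 scale in both arms, and they were named after their values had been seen. REG4, a lectin of secretory cells, changed by -1.43 and -2.15 (limma adjusted p = 6.6e-07 and 3.5e-07). AKR1B10, an aldo-keto reductase, changed by -1.25 and -1.43 (limma adjusted p = 2.1e-06 and 3.6e-07). TM4SF4, a tetraspanin-like membrane protein, changed by -1.06 and -1.34 (limma adjusted p = 6.2e-06 and 3.5e-07), and MUC5AC, a secreted mucin, by -1.06 and -1.60 (limma adjusted p = 0.0016 and 0.00016). Between the controls they parted: AKR1B10 was lower in shNT1 than in GFP (log2 difference -0.97, limma adjusted p = 1.3e-07), as CEACAM5 and CEACAM6 were, while REG4 was higher (0.72, limma adjusted p = 1.3e-05) and MUC5AC had a difference of -0.06 (limma adjusted p = 0.85). TM4SF4 was lower in shNT1 by 0.37 (limma adjusted p = 0.00041).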
